A study of Mus musculus with 13 samples.

Results

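The extracellular matrix is the mesh of secreted proteins around cells, and in the brain it is densest in the basement membranes of blood vessels, in the meninges and in the perineuronal nets. The genes described here are its collagens and laminins, the metalloproteinases that cut it (Mmp and Adam), the Timp inhibitors of those enzymes, and the integrins through which cells hold on to it. They were taken from the array's annotation as all probe sets assigned to a single gene whose symbol starts with Col and a digit, Lama, Lamb and a digit, Lamc, Timp, Mmp, Adam, Itga or Itgb. That rule found 94 genes, of 8251 with a probe set of their own, and 136 of the 12422 gene probe sets on the array. It reads gene symbols only, though this group of genes was proposed with earlier results of these data known. By the same spelling it took in Itgb1bp1, which encodes a protein that binds the integrin tail and is not itself an integrin, and Adamts1 and Adamdec1.

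RNA came from whole brain hemispheres, and each sample was hybridised to an Affymetrix MG-U74Av2 array, on which a probe set is a group of short oligonucleotides for 1 transcript. The 13 arrays form 4 groups by their titles, namely wild type untreated (3 arrays), wild type with triple treatment (3), R6/2 untreated (4) and R6/2 with triple treatment (3). R6/2 mice are a transgenic model of Huntington's disease, in which a fragment of human huntingtin with an expanded glutamine tract is made throughout the body from the human promoter. The drugs were tacrine at 2.7 mg/kg/day, started at 5 weeks, moclobemide at 10 mg/kg/day, and creatine at 1% w/v in wet mash. Of these, tacrine blocks the breakdown of acetylcholine, moclobemide that of monoamine transmitters, and creatine is an energy buffer of the cell. The sample descriptions name these drugs for all 13 arrays, untreated ones as well, so the treatment of an array rests on its title. The description of treated R6/2 array 1 also carries the lot number of untreated R6/2 array 4 in place of the one in its own title. The title was followed, and the R6/2 treatment differences include that array. Only 1 array, of an untreated wild type, carries a harvest age, which is 8 weeks. The labels do not state that the arrays of a group are separate animals. Here p-values measure the spread between arrays, which may in part be technical.

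The arrays were not equally alike. The first principal component held 33.87% of the variance. Untreated R6/2 arrays 2 and 3 had scores of 25.43 and 45.75 on it, and the other 11 arrays reached at most 4.091. In all 66 control probe sets the deposited values of untreated R6/2 arrays 2, 3 and 4 were 1.2 times those of treated R6/2 array 1, treated R6/2 array 3 and untreated R6/2 array 1, within 0.06 signal units, and what the shared control rows mean for the gene rows was not tested. Differences that rest on untreated R6/2 mice are therefore also given without arrays 2 and 3 where they passed, or where leaving those arrays out made a call, turned the sign or moved a value named for its p by over 1.5 times. Markers of brain cell types were read as well. All 10 neuronal markers with a probe set of their own were above the filter on dim probe sets, as were 7 of 8 oligodendrocyte and 7 of 8 astrocyte markers. So were 9 of 10 endothelial and 10 of 12 meningeal and fibroblast markers. The filter kept 7453 of 12422 gene probe sets and no markers of other organs were read, so these counts do not test the tissue label.

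Collagens and laminins are the structural part of the matrix. Metalloproteinases of the Mmp family cut matrix proteins outside the cell. Adam proteins are membrane proteins of which some shed the outer parts of other membrane proteins and some have lost protease activity. Timp proteins block the active site of Mmp enzymes, and some of them also that of some Adam enzymes. Integrins are pairs of an alpha and a beta chain that bind collagen, laminin or fibronectin outside the cell and the cytoskeleton inside it.

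Much of the family lay in the dim range of the array. A probe set was tested when its mean log2 signal over the 13 arrays reached the 40th percentile of all gene probe sets, a signal of 24.9. This held for 56 of the 136 member probe sets, which stand for 45 genes. They comprised 20 collagen, 5 laminin, 3 Timp, 2 Mmp, 9 Adam and 17 integrin probe sets. Mmp genes had the smallest tested share, with 2 of 16 probe sets. The 80 untested probe sets include 21 that exceeded the filter signal in at least 1 array. No tested probe set exists for 49 genes, namely Col2a1, Col3a1, Col4a3, Col4a4, Col4a5, Col5a2, Col10a1, Col11a2, Col12a1, Col13a1, Col14a1, Col17a1 and Col22a1 among the collagens, and Lama1, Lama2, Lama3 and Lamb3 among the laminins. Among the enzymes they are Mmp2, Mmp3, Mmp7, Mmp8, Mmp9, Mmp10, Mmp11, Mmp12, Mmp13, Mmp16, Mmp24, Adam2, Adam4, Adam7, Adam8, Adam12, Adam17, Adam22, Adam28, Adamdec1 and Adamts1. Among the integrins they are Itga2, Itga4, Itga5, Itga6, Itga8, Itgae, Itgal, Itgam, Itgb2, Itgb2l and Itgb3. The mean signals of the untested probe sets ran from 1.154 to 30.62. For these genes the array gives no usable comparison at the filter used, which says nothing about whether the genes are expressed.

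The tested members spread more between arrays of 1 group than other genes did. Their median within-group SD was 0.19 on the log2 scale in untreated wild types, against 0.15 for the other tested probe sets. The corresponding pairs were 0.25 and 0.18 in treated wild types, 0.30 and 0.26 in untreated R6/2 mice, and 0.23 and 0.18 in treated R6/2 mice. Signals below are the deposited linear intensities, arrays are listed in their numbered order, and differences between groups are log2 differences with the standard error (SE) of the limma fit. A probe set is said to have passed when its limma p-value, adjusted by Benjamini-Hochberg over all 7453 tested probe sets, lay under 0.05.

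The Timp inhibitors were the only family in which every gene had a tested probe set. Timp3, which unlike the other members stays bound to the matrix and also inhibits Adam enzymes, had the largest difference of the family and the smallest p of all members in treated against untreated R6/2 mice. Its signals in untreated R6/2 mice were 328.3, 316.3, 411.8 and 332.8, and with treatment they were 176, 210.9 and 232.9. Every treated R6/2 array lay below every untreated one. In wild type mice the Timp3 signals were 335.7, 406.3 and 281.9 without treatment and 363.1, 261.1 and 227.1 with it, and these groups overlapped. The group means were 347 ± 43.6 (SD, n = 4) in untreated R6/2, 207 ± 28.7 (n = 3) in treated R6/2, 341 ± 62.4 (n = 3) in untreated wild type and 284 ± 70.8 (n = 3) in treated wild type mice.

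The log2 difference of Timp3 with treatment in R6/2 mice was -0.75 (SE 0.17), with an unadjusted p of 0.000644 and an adjusted p of 0.246, so it did not pass. Without untreated R6/2 arrays 2 and 3 it was -0.69, and without treated R6/2 array 1 it was -0.64. Over the 21 alternative settings it ranged from -0.84 to -0.64, with adjusted p from 0.0564 to 0.99965. In wild type mice the difference was -0.28 (SE 0.19, adjusted p = 0.624). Averaged over both genotypes it was -0.51 (SE 0.13, adjusted p = 0.252). The interaction, which tests whether the treatment difference itself differs between genotypes, was -0.47 for Timp3 and did not pass (adjusted p = 0.427). Between genotypes the Timp3 difference was 0.03 (SE 0.17) without treatment and -0.44 (SE 0.19, adjusted p = 0.479) with treatment.

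Timp2, which inhibits metalloproteinases and also takes part in the activation of the Mmp2 proenzyme on the cell surface, spread widely within groups. Its signals were 296.1, 265.2 and 296.9 in untreated and 129.6, 273.7 and 266.9 in treated wild types. They were 213.4, 186.6, 107.3 and 316.7 in untreated and 241, 307.3 and 268.4 in treated R6/2 mice. The lowest arrays were treated wild type array 1 and untreated R6/2 array 3, and the groups overlapped in both genotypes. The treatment differences were 0.50 (SE 0.30) in R6/2 and -0.43 (SE 0.32) in wild type mice, and neither passed. Both were smaller without the low arrays. The R6/2 difference was 0.06 without untreated R6/2 arrays 2 and 3, and without treated wild type array 1 the wild type difference was -0.08.

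Timp1, a secreted inhibitor induced by injury and inflammation, had signals of 198.4, 149.2 and 176.5 in untreated and 171.4, 307.6 and 200.5 in treated wild types. In R6/2 mice it had 174.4, 166.3, 137.7 and 187.7 without and 284.4, 153 and 252.7 with treatment. The treated arrays reached higher values in both genotypes, but the groups overlapped in each. The difference averaged over genotype was 0.38 (SE 0.16, adjusted p = 0.362). The other probe sets of these genes were too dim to test, with mean signals of 4.515 for the second of Timp1 and 11.82 and 3.046 for those of Timp2.

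**Figure D1:**
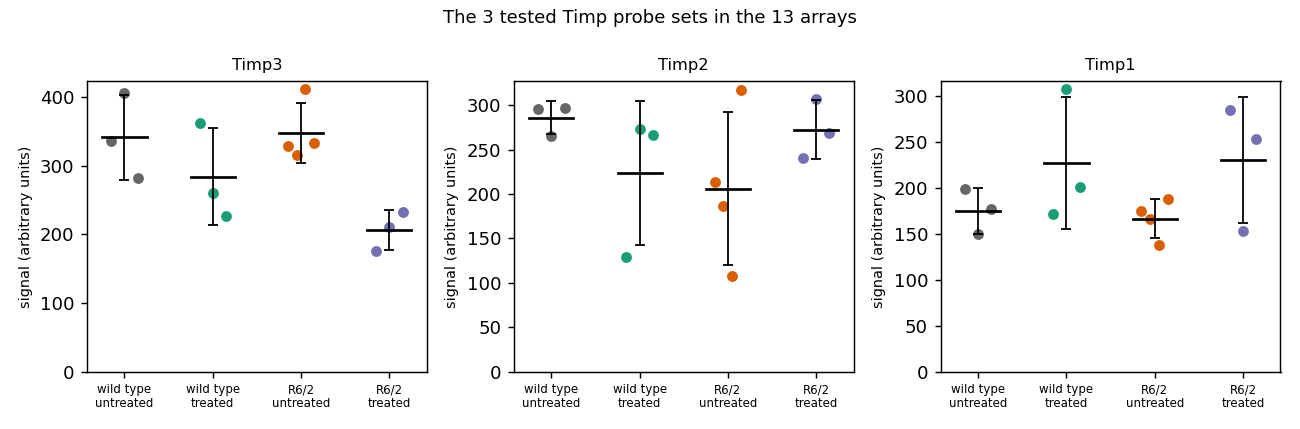
Deposited signal (linear scale) of the tested Timp1, Timp2 and Timp3 probe sets in each array, by group; points are arrays, horizontal lines group means and vertical bars SD. For Timp3 the treated R6/2 arrays lie at 176 to 232.9, below all 4 untreated R6/2 arrays.

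The 250 bases before the start of each Timp gene and of Lamb1, the laminin gene whose treated R6/2 arrays likewise all lay below the untreated ones, show what the promoters of these genes share. They are RefSeq sequences of build GRCm38.p6, printed 5′ to 3′ on the gene's strand, with GC boxes (GGGCGG on either strand) in capitals.
Timp1, chrX:20869916-20870165, plus strand: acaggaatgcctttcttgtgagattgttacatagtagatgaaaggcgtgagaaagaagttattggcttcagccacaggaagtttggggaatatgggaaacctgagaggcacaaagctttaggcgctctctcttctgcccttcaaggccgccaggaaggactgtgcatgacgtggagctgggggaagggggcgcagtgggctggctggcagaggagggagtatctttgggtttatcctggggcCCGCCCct
Timp2, chr11:118355412-118355661, minus strand: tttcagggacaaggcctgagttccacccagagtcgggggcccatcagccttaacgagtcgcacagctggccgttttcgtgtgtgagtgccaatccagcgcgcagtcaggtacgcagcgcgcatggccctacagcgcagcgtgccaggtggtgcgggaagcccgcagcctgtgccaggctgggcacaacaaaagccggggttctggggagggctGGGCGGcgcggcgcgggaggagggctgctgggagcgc
Timp3, chr10:86300162-86300411, plus strand: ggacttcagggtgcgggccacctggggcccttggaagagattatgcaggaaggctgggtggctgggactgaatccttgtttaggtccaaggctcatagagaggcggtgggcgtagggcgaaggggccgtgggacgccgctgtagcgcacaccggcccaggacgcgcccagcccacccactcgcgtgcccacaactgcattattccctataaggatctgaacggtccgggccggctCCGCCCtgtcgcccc
Lamb1, chr12:31265043-31265292, plus strand: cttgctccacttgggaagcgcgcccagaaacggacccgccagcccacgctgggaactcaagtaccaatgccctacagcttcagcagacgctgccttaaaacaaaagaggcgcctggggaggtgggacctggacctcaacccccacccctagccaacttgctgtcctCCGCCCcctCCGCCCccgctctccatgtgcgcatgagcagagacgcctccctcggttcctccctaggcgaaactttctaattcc

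Each Timp window held 1 GC box and the Lamb1 window held 2. None of these windows held a TATA box (TATAAA), an AP-1 site (TGANTCA) or a cyclic AMP response element (TGACGTCA), all searched on both strands. The Timp2 window was 68% G and C, Timp3 65.6%, Lamb1 62% and Timp1 54.4%. Windows were found for 60 of the 94 member genes, 69 windows in all. A GC box stood in 46.4% of them, against 32.7% of all 32851 windows in the table. The AP-1 letters stood in 11.6% against 6.75%, TATAAA in 14.5% against 12.4%, and the cyclic AMP element in 0 of 69 against 1.55%. These are counts of letters and do not show binding.

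Among the metalloproteinases that were bright enough to test, Mmp17 was lower in R6/2 than in wild type mice whether or not they were treated. Mmp17 encodes a metalloproteinase that is anchored to the cell surface by a lipid. Its signals in untreated mice were 178.7, 171.6 and 155.9 in wild type against 111.8, 85.4, 55.3 and 110.4 in R6/2. With treatment they were 174.9, 155.6 and 172.5 against 108.4, 104 and 106.3. No R6/2 array reached the lowest wild type array. The means were 169 ± 11.7 and 168 ± 10.5 (SD, n = 3 each) in untreated and treated wild types, and 90.7 ± 26.6 (n = 4) and 106 ± 2.2 (n = 3) in untreated and treated R6/2 mice.

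Mmp17 differed by -0.95 (SE 0.20, adjusted p = 0.0117) between untreated genotypes, and by -0.60 (adjusted p = 0.0233) without untreated R6/2 arrays 2 and 3. Without untreated wild type array 2 its adjusted p was 0.0533, and with only the arrays compared in the fit it was 0.0544. Between treated genotypes the difference was -0.66 (SE 0.21, adjusted p = 0.240). Averaged over treatment it was -0.80 (SE 0.14, adjusted p = 0.00407), and this call held in all 20 alternatives, with a highest adjusted p of 0.0188. Treatment moved Mmp17 by 0.28 (SE 0.20) in R6/2 and by -0.01 (SE 0.21) in wild type mice, and neither passed. The R6/2 difference was -0.06 without untreated R6/2 arrays 2 and 3.

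Mmp14, a transmembrane enzyme that cuts collagen and activates the Mmp2 proenzyme, was the other tested Mmp gene. Its signals were 99.2, 88.5 and 91 in untreated and 123.2, 128.3 and 124.6 in treated wild types. In R6/2 mice they were 124.4, 92.9, 117.6 and 140.5 without and 163.8, 126.7 and 171.3 with treatment. The treated wild type arrays all lay above the untreated ones, while the R6/2 groups overlapped. The treatment differences were 0.43 (SE 0.16, adjusted p = 0.387) in wild type and 0.38 (SE 0.15, adjusted p = 0.257) in R6/2 mice, and 0.41 (SE 0.11, adjusted p = 0.252) averaged. On leaving out untreated R6/2 arrays 2 and 3 the R6/2 difference was 0.21. The genotype difference averaged over treatment was 0.31 (SE 0.11, adjusted p = 0.101), and it passed without those arrays (0.40, adjusted p = 0.0337) and with array weights (0.34, adjusted p = 0.0320).

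Counted over all members, 7 of the 56 tested probe sets passed between untreated genotypes, which is 12.5%. The background over all tested probe sets was 11.9%, so the share among these genes was near that of the array as a whole. Of the 7, 4 were higher in R6/2 mice, where the background was 5.49%, and 3 were lower, where it was 6.41%. At an unadjusted p under 0.05 the members' share was 25% against 30.2%. The groups did not overlap for 9 members, 16.1%, against 26.2%. The members' median log2 difference was 0.08, and that of all tested probe sets was 0.04. Collagens supplied 3 of the calls, Adam genes 3 and Mmp genes 1. The Col8a1 call, 1 of the 4 higher ones, is of a probe set that reached the filter only through the groups other than untreated wild type. No laminin, Timp or integrin probe set passed.

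The count moved with the arrays in the fit. Without untreated R6/2 arrays 2 and 3 together it was 2 (Mmp17 and Col18a1), while the count over all tested probe sets went from 887 to 167. Leaving out single arrays gave 0 without untreated wild type array 2, 1 without array 3 and 3 without array 1 of that group. It gave 3 without untreated R6/2 array 2 or 3, 4 without treated wild type array 2 and 11 without untreated R6/2 array 4. Over all tested probe sets the single-array counts ran from 156 to 1301.

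Adam11, which has lost protease activity and is made mainly by neurons, was lower in untreated R6/2 mice. Its signals were 174.8, 165.5 and 179.2 in untreated wild types against 111.8, 95.6, 70.9 and 123.1 in untreated R6/2 mice, with no overlap. With treatment they were 137.8, 168.9 and 189.2 against 134.3, 148 and 112.6, which do overlap. The difference was -0.82 (SE 0.18, adjusted p = 0.0147) between untreated and -0.33 (SE 0.19, adjusted p = 0.705) between treated genotypes. Averaged over treatment it was -0.57 (SE 0.13, adjusted p = 0.0183). The call between untreated genotypes was lost without untreated wild type array 2 or 3 (adjusted p up to 0.0613) and without untreated R6/2 arrays 2 and 3 together (-0.56, adjusted p = 0.0828). The averaged call was lost without array 3 of either treated group.

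Adam19, an active membrane protease, was dimmer and also lower. It had signals of 45.8, 63.9 and 45.3 in untreated wild types and 28.8, 31.9, 24.3 and 35.1 in untreated R6/2 mice. The treated signals were 38.3, 43.4 and 58.8 in wild type and 23.5, 41.4 and 38.6 in R6/2 mice. The groups did not overlap without treatment and overlapped with it. The difference between untreated genotypes was -0.78 (SE 0.24, adjusted p = 0.0494). Leaving out any of 10 single arrays ended that call, with adjusted p up to 0.190, and it was -0.68 (adjusted p = 0.223) without untreated R6/2 arrays 2 and 3. Averaged over treatment the difference was -0.62 (SE 0.18, adjusted p = 0.0495), a call that also ended on leaving out any of 10 single arrays, or untreated R6/2 arrays 2 and 3 (-0.57, adjusted p = 0.116).

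Adam3, a gene known for its part in sperm binding to the egg, was read by a probe set that was lowest in untreated wild types. Its signals there were 92, 89.2 and 99.9, against 122.5, 153.6, 129.5 and 131 in untreated R6/2 mice. In treated wild types they were 137.5, 132.8 and 160.4, and in treated R6/2 mice 112.1, 135.7 and 182.2. The 3 untreated wild type arrays lay below all others. The difference between untreated genotypes was 0.51 (SE 0.16, adjusted p = 0.0474), which 10 of 13 single arrays could end (adjusted p up to 0.144). Without untreated R6/2 arrays 2 and 3 it was 0.44 (adjusted p = 0.217). Treatment in wild type mice gave 0.61 (SE 0.17, adjusted p = 0.297).

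The remaining Adam probe sets did not pass. Adam10, the main enzyme that sheds the amyloid precursor protein on its non-amyloid route, had tested probe sets that disagreed, at -0.51 (SE 0.22, adjusted p = 0.144) and 0.35 between untreated genotypes. The first was -0.15 (adjusted p = 0.727) without untreated R6/2 arrays 2 and 3, and it passed without array 4 (-0.68, adjusted p = 0.0392). Adam9, a widely made membrane protease, had a treatment difference of -0.47 (SE 0.15, adjusted p = 0.247) in R6/2 mice, and -0.23 without untreated R6/2 arrays 2 and 3. Adam23, an inactive family member made by neurons, differed by -0.29 (SE 0.12, adjusted p = 0.150) between genotypes averaged over treatment, and by -0.19 without untreated R6/2 arrays 2 and 3. Adam5, another sperm gene, had the brightest Adam probe set with a mean signal of 189.3, and its treatment difference in R6/2 mice was 0.45 (SE 0.19, adjusted p = 0.264). Adam15, a protease of cell contacts, ran from 42.9 to 92.9. Adam3 and Adam5 lie next to each other in the genome by the RefSeq table.

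**Figure D2:**
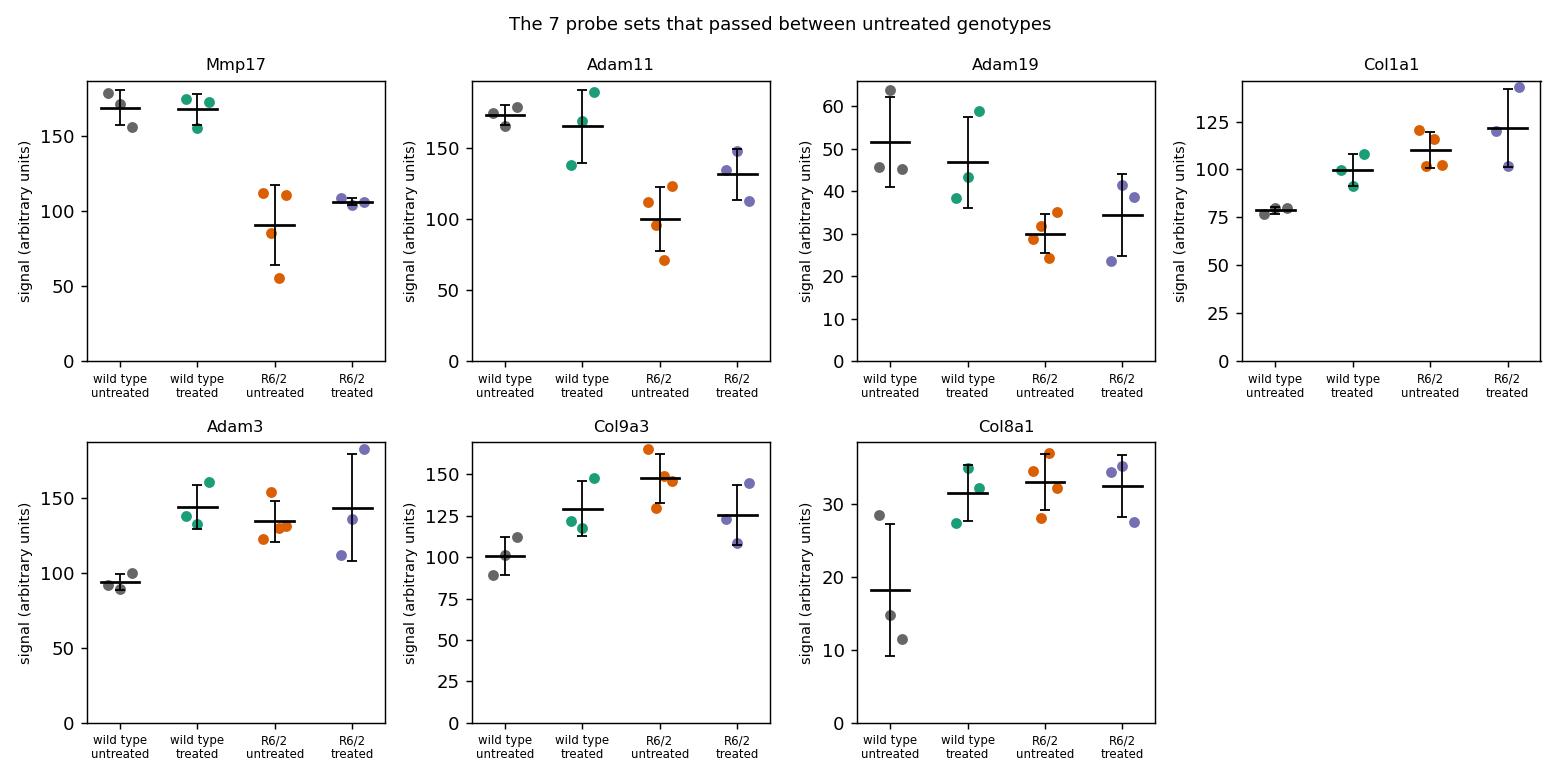
Deposited signal (linear scale) in each array, by group, of the 7 probe sets that passed between untreated genotypes; points are arrays, horizontal lines group means and vertical bars SD. Mmp17, Adam11 and Adam19 are lower in untreated R6/2 than in untreated wild type mice, and Col9a3, Col1a1, Col8a1 and Adam3 are higher.

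In the collagens, 3 of 20 tested probe sets rose in untreated R6/2 mice and none fell. That is 15% against the background of 11.9%, or of 5.49% for higher calls alone. Of the 3, Col8a1 reached the filter only through the groups other than untreated wild type, so its rise is partly set by the filter. The differences were evenly split, with 10 of the 20 below 0, and the lowest was Col18a1 at -0.89. Col9a3 encodes a chain of type IX collagen, which decorates the surface of collagen fibrils and is best known from cartilage. Its signals were 89.2, 101 and 112 in untreated wild types and 165.5, 129.8, 148.9 and 146.2 in untreated R6/2 mice, without overlap. With treatment the genotypes were alike in range, with 121.9, 117.6 and 148.1 in wild type and 123.1, 108.3 and 144.6 in R6/2 mice. The difference between untreated genotypes was 0.55 (SE 0.14, adjusted p = 0.0268). The call ended without any 1 of the 3 untreated wild type arrays (adjusted p up to 0.0990), and the difference was 0.63 (adjusted p = 0.0694) without untreated R6/2 arrays 2 and 3. The interaction was -0.60 (SE 0.21, adjusted p = 0.315). The partner chains did not pass, with Col9a1 at -0.25 and Col9a2 at 0.20.

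Col1a1 encodes the main chain of type I collagen, which in the brain is made chiefly by meningeal and perivascular fibroblasts. The probe set that passed had signals of 76.7, 79.7 and 79.7 in untreated wild types and 120.6, 102, 115.7 and 102.5 in untreated R6/2 mice. With treatment they were 99.9, 91.4 and 107.9 in wild type and 120.3, 101.7 and 142.8 in R6/2 mice. Without treatment the genotypes did not overlap, and with treatment they did. The difference was 0.48 (SE 0.14, adjusted p = 0.0369) between untreated genotypes and 0.38 (SE 0.10, adjusted p = 0.0347) averaged over treatment. The first call ended without any 1 of untreated R6/2 arrays 1 to 3 or of the untreated wild type arrays (adjusted p up to 0.104). The averaged call ended without any 1 of treated R6/2 arrays 1 and 3, treated wild type arrays 1 and 2 or the untreated wild type arrays (adjusted p up to 0.0966). Without untreated R6/2 arrays 2 and 3 the difference between untreated genotypes was 0.50 (adjusted p = 0.115), and the averaged one was 0.39 (adjusted p = 0.0536). The second Col1a1 probe set, with signals of 19.8 to 57.2, gave 0.22 (SE 0.29).

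Col8a1, a short-chain collagen of vessel walls, was close to the filter. Its signals were 28.5, 14.7 and 11.5 in untreated wild types and 34.5, 28, 37 and 32.2 in untreated R6/2 mice. They were 27.3, 34.9 and 32.1 in treated wild types and 34.4, 35.2 and 27.5 in treated R6/2 mice. The untreated genotypes overlapped, and 2 low untreated wild type arrays set the group apart. The difference of 0.96 (SE 0.28, adjusted p = 0.0401) was lost on leaving out any of 7 single arrays (adjusted p up to 0.172), and it was 0.98 (adjusted p = 0.145) without untreated R6/2 arrays 2 and 3. The probe set passed the filter through the other 3 groups.

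The markers of meninges and fibroblasts, cells that make fibrillar collagen, were read beside these differences. The summed signal of 12 meningeal and fibroblast markers, 10 of them above the filter, was 2605 to 3113 in untreated and 2711 to 3543 in treated wild types. It was 3260 to 4308 in untreated and 3307 to 4250 in treated R6/2 mice. Of the 10 tested markers 1 passed between untreated genotypes, which is 10% against the background of 11.9%. It was Igf2, at 0.66 (adjusted p = 0.0139), and at 0.68 (adjusted p = 0.0278) without untreated R6/2 arrays 2 and 3. Of the 10, 6 lay above 0 and 4 below it, with Igfbp2 at -0.41 (adjusted p = 0.144). Between treated genotypes none passed, and the summed ranges overlap. The part of these cells in the Col1a1 difference was not tested. In bulk tissue, fewer cells of a type and less RNA per cell cannot be told apart. Summed neuronal markers were 8965 to 9329 in untreated wild types and 6939 to 8047 in untreated R6/2 mice, and oligodendrocyte markers were 4046 to 4469 and 2384 to 3062. These ranges lie beside the lower Mmp17, Adam11 and Adam19 in R6/2 mice, and their part in those differences was not tested. Between untreated genotypes 6 of the 10 tested neuronal markers lay below 0 and 4 above it, while all 7 tested oligodendrocyte markers lay below 0. With treatment the neuronal sums overlapped, at 7923 to 9155 in wild type and 7589 to 8131 in R6/2 mice. The treated oligodendrocyte sums were 3962 to 4670 in wild type and 2612 to 3604 in R6/2 mice.

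Basement membrane collagens did not pass in any comparison. Col4a1 and Col4a2, whose chains form the type IV network under vessel endothelium and whose genes are neighbours, had their clearest differences with treatment in wild type mice. Col4a1 signals were 61.1, 73.4 and 82.2 without and 119.1, 99.1 and 125.9 with treatment, and the R6/2 arrays spread from 62.3 to 139 without treatment and from 85 to 113.9 with it. Col4a2 signals were 149.6, 191.8 and 189 without and 204.9, 198.7 and 243.1 with treatment in wild types. The treated wild type arrays lay above the untreated ones for both genes. The differences were 0.67 (SE 0.25, adjusted p = 0.387) for Col4a1 and 0.29 (SE 0.13, adjusted p = 0.481) for Col4a2. In R6/2 mice they were 0.03 and -0.07, and 0.44 and 0.03 without untreated R6/2 arrays 2 and 3. Endothelial markers summed to 637.3 to 729.5 in untreated and 635.8 to 697.3 in treated wild types, ranges that overlap. Pericyte and smooth muscle markers summed to 363.8 to 437.1 in untreated and 315.6 to 363.5 in treated wild types, ranges that do not overlap. Of the 6 tested pericyte and smooth muscle markers 5 lay below 0 and 1 above it. The part of any of these cells in the collagen differences was not tested.

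Col18a1, a vascular basement membrane collagen from which endostatin is cut, had signals of 56.8, 59.7 and 56.1 in untreated wild types and 15.6, 45.1, 54.7 and 23.9 in untreated R6/2 mice. Its difference was -0.89 (SE 0.35, adjusted p = 0.107), and -1.57 (adjusted p = 0.0137) without untreated R6/2 arrays 2 and 3, which are its 2 higher arrays in that group. It also passed with array weights (-1.03, adjusted p = 0.0368). Averaged over treatment it was -0.48 and did not pass, and -0.82 (adjusted p = 0.0243) without those 2 arrays. Col1a2, the partner chain of Col1a1, was read by probe sets of different brightness. The bright one had the highest mean signal of the tested collagens, 440.2, with a treatment difference of 0.40 (SE 0.17, adjusted p = 0.272) in R6/2 mice. That difference was 0.26 without untreated R6/2 arrays 2 and 3, and 0.24 without treated R6/2 array 1. The dim one had signals of 41, 58.6 and 45.5 in untreated and 25, 11.1 and 13.5 in treated wild types, a difference of -1.62 (SE 0.52, adjusted p = 0.323), while the bright one gave 0.04 there. In treated R6/2 mice the dim set spread from 15.3 to 72.2. It reached the filter only through the groups other than treated wild type, so its differences from that group are partly set by the filter. Its genotype difference with treatment was 1.45 (SE 0.52, adjusted p = 0.351), and 2.19 (adjusted p = 0.0442) without treated R6/2 array 1.

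The other bright collagens were Col4a2, with a mean signal of 195.4, and Col5a1, a regulator of fibril width, with 188.8. Col5a1 differed by -0.01 (SE 0.17) between untreated genotypes. Col6a1, a chain of the beaded type VI collagen, had a treatment difference of -0.34 (SE 0.19, adjusted p = 0.550) in wild types, against 0.20 for its neighbour Col6a2. Col9a2 differed by 0.43 (SE 0.15, adjusted p = 0.353) and Col19a1, a collagen made by some neurons, by -0.29 (SE 0.15, adjusted p = 0.604) between treated genotypes. For both genes the treated genotypes did not overlap. The remaining tested collagens were dim. Col11a1 and Col15a1 had signals of 25.4 to 90 and 13.4 to 40.1, Col26a1 24.8 to 50.7, Col6a3 19.1 to 71 and Col7a1 12.4 to 57.6, and none of them passed in any comparison.

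**Figure D3:**
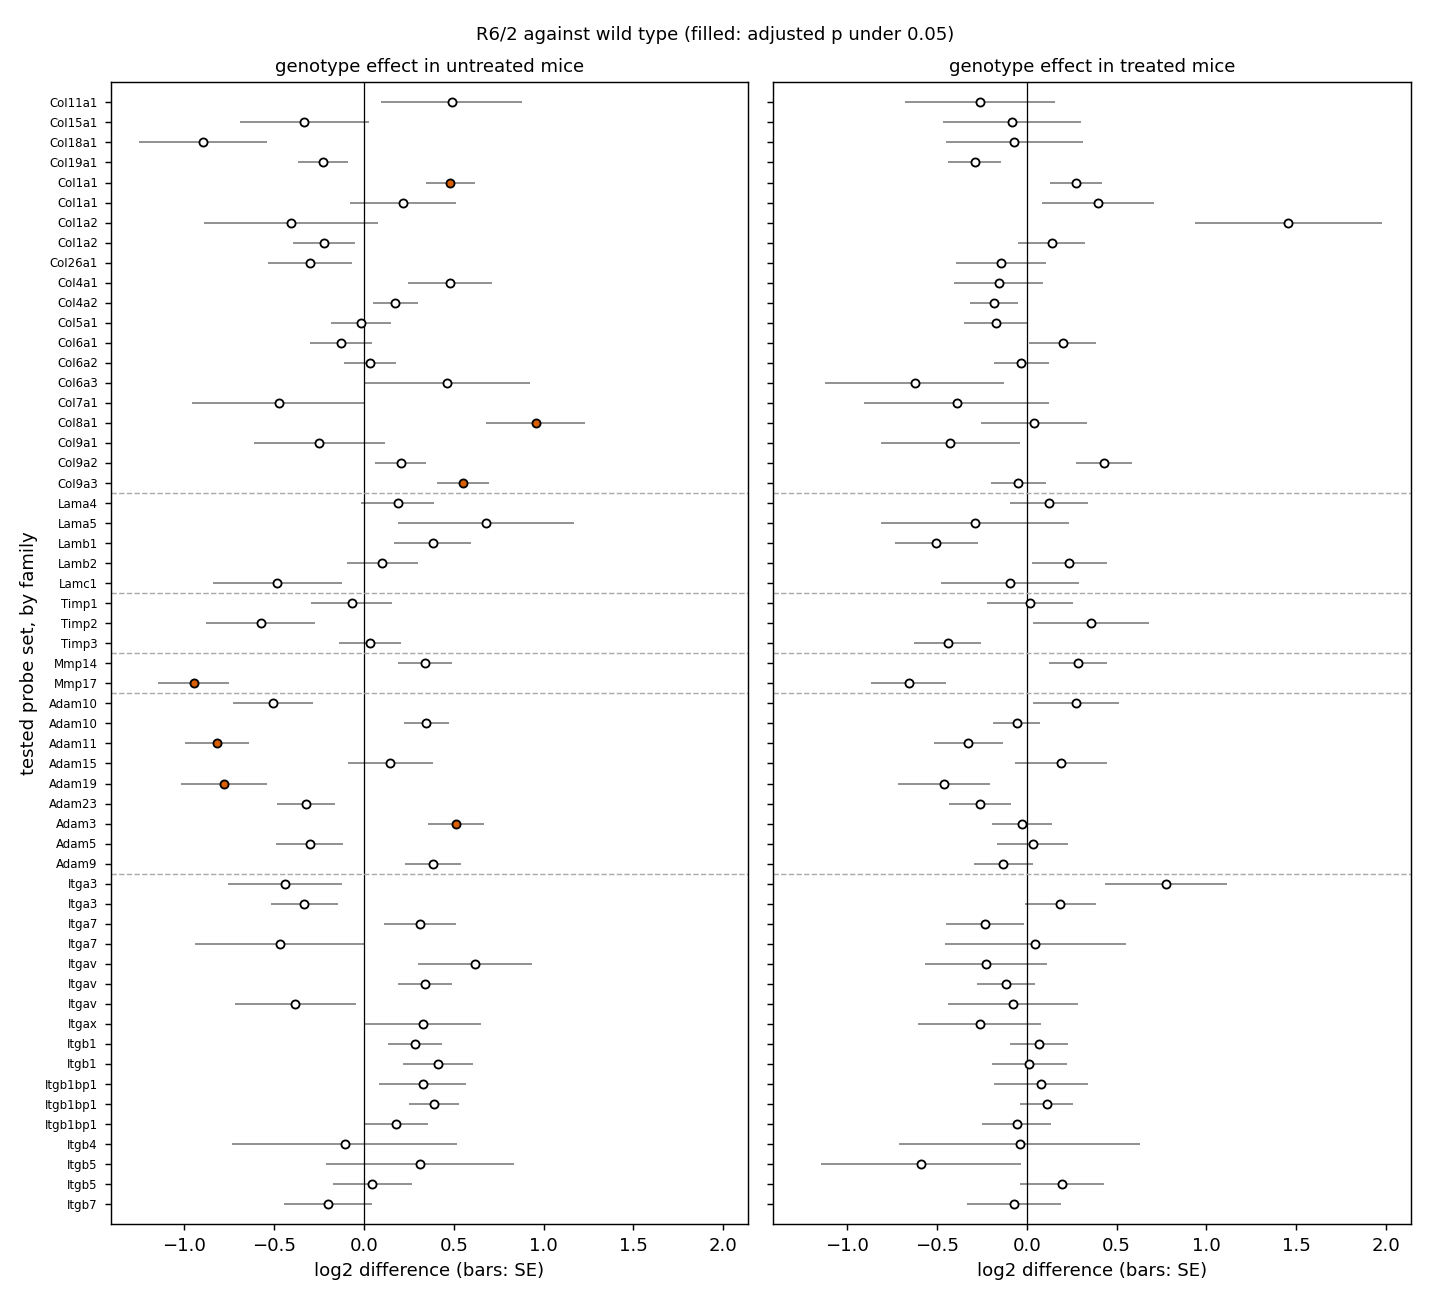
Log2 difference between R6/2 and wild type mice for the 56 tested probe sets, by family, in untreated and treated mice; bars are SE and filled points passed. The 7 filled points all lie in the untreated comparison, and the Mmp17 point lies near -0.95 without and -0.66 with treatment.

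Laminins are the trimers on which basement membranes are built, and of their 5 tested probe sets none passed in any comparison. Lamb1, a beta chain common in brain vessels, had the smallest p among them with treatment in R6/2 mice. Its signals were 31, 46.2, 54 and 43.4 in untreated and 21.6, 29.6 and 26.9 in treated R6/2 mice, against 35.3, 31.7 and 31.6 and 32.5, 35.2 and 42.7 in wild types. The treated R6/2 arrays lay below all the others, and close to the filter. The difference was -0.73 (SE 0.21, adjusted p = 0.247), and it passed without untreated R6/2 array 1, the lowest of its group (adjusted p = 0.0489). It was -0.51 without untreated R6/2 arrays 2 and 3, and -0.60 without treated R6/2 array 1. The interaction was -0.89 (SE 0.31, adjusted p = 0.315). Lamc1, the gamma chain of most laminins, was the brightest laminin, with signals of 30.6 to 145.7, the lowest in untreated R6/2 array 3. Lama4 and Lamb2, chains of vessel laminins, ran from 29 to 46.6 and from 25.8 to 40.8, and Lama5 ran from 9.1 to 46.5.

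None of the 17 integrin probe sets passed in any comparison. Itgav, an alpha chain of receptors for vitronectin and fibronectin, had the brightest of them, with 445.9 to 716.9 and a mean of 534.6. Its difference between untreated genotypes was 0.34 (SE 0.15), but its 3 probe sets ran from -0.38 to 0.62. They ran from -0.08 to 0.51 without untreated R6/2 arrays 2 and 3. Itgb1, the beta chain shared by most collagen and laminin receptors, had signals of 367.6 to 643.3 in its brighter probe set and 64.2 to 129.6 in its dimmer one. The Itgb1 differences between untreated genotypes were 0.29 and 0.41, on the same side, and 0.08 and 0.32 without untreated R6/2 arrays 2 and 3. Itgb1bp1 came nearest to the threshold, at 0.39 (SE 0.14, adjusted p = 0.0751), and passed without untreated R6/2 array 4 (0.48, adjusted p = 0.0283). Its signals were 64.3, 58.5 and 74 in untreated wild types and 92.6, 87.3, 93.9 and 70.9 in untreated R6/2 mice, and R6/2 array 4 lay within the wild type range.

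Itga3 and Itga7 encode alpha chains of laminin receptors. For Itga3 the treated R6/2 arrays were at 73.9, 65.2 and 83.8 in the brighter probe set, above the untreated R6/2 arrays at 63.4, 40.1, 55.1 and 64.7, a difference of 0.43 (SE 0.19, adjusted p = 0.272), and 0.21 without untreated R6/2 arrays 2 and 3. The dimmer Itga3 probe set differed by 0.77 (SE 0.34, adjusted p = 0.504) between treated genotypes, with an interaction of 1.21 (SE 0.46, adjusted p = 0.316). Itga7 had 53.6, 39.7 and 56.2 in untreated and 73.2, 71.2 and 88 in treated wild types in the probe set with the smaller p, a difference of 0.65 (SE 0.22, adjusted p = 0.333). Its other probe set gave 0.24 (SE 0.50). The other integrins were Itgb5, a partner of the Itgav chain, with 19 to 123.2 in its more variable probe set, Itgb4, a laminin receptor chain, with 10.4 to 90.7, and the leukocyte chains Itgax, with 19.2 to 53, and Itgb7, with 32.9 to 70.8. Among the 9 genes with several tested probe sets, the sets had the same sign for 6 genes between untreated genotypes, for 5 between treated genotypes, for 6 with treatment in R6/2 and for 5 with treatment in wild type mice.

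Between treated genotypes, limma called 0 of 56 members at a background of 0.792%. At an unadjusted p under 0.05 there were 6, or 10.7%, against 9.19%, and 8 members, 14.3%, did not overlap, against 16.8%. The call for Mmp17 there depended on the fit. It passed with array weights (adjusted p = 0.0296), with only the arrays compared (0.0388), without untreated R6/2 array 3 (0.0189) and without untreated R6/2 arrays 2 and 3 (0.00632). The 2 genotype comparisons share no arrays, and whether the genotype difference of a member changed with treatment is the interaction. There 0 of 56 members passed, with a background of 0%, and 9, or 16.1%, had an unadjusted p under 0.05, against 13.5%. The smallest adjusted p, 0.315, belonged to Col9a3 and Lamb1. The interactions next in p were 1.21 for the dimmer Itga3 probe set, 1.86 for the dim Col1a2 probe set, 0.78 for the first Adam10 probe set, -0.54 for Adam3, -0.52 for Adam9, -0.91 for Col8a1, 0.93 for Timp2 and 0.52 for the brighter Itga3 probe set. Several of them were smaller without untreated R6/2 arrays 2 and 3, at 0.49 for Timp2, -0.28 for Adam9, 0.29 for the brighter Itga3 and 0.42 for the first Adam10 probe set. The differences next in p between treated genotypes, beyond those given above, were -0.50 for Lamb1, 0.28 for Col1a1, -0.46 for Adam19 and 0.28 for Mmp14.

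Averaged over treatment, 4 of 56 members passed between genotypes, 7.14% against a background of 6.61%. Col1a1 was the 1 higher, with a background of 2.58%, and Mmp17, Adam11 and Adam19 were the 3 lower, with a background of 4.04%. This count was 1 without treated R6/2 array 3, and 2 without treated R6/2 array 1, treated wild type array 2 or 3, or untreated wild type array 2 or 3. Next in p were Col9a2 at 0.32, Mmp14 at 0.31, Col19a1 at -0.26, Itgb1bp1 at 0.25, Adam23 at -0.29 and Col8a1 at 0.50, none of which passed. Col8a1 passed without untreated wild type array 1 (0.69, adjusted p = 0.0332). The count was again 4 without untreated R6/2 arrays 2 and 3, namely Mmp14, Mmp17 (-0.63, adjusted p = 0.000608), Adam11 (-0.44, adjusted p = 0.0285) and Col18a1.

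Treatment gave no member past the threshold. In R6/2 mice 0 of 56 passed at a background of 0%, and 10 members, 17.9%, had an unadjusted p under 0.05, against 16.9%. Without untreated R6/2 array 1 the count was 1 (Lamb1). Over all tested probe sets, leaving out single arrays gave 0 to 116 calls in this comparison. The groups did not overlap for Timp3, Lamb1 and Itga3, which is 5.36% against a background of 10.6%. In wild type mice 0 of 56 passed at a background of 0%, with 9 (16.1%) at an unadjusted p under 0.05 against 10.3%, and 15 (26.8%) without overlap against 21.8%. Averaged over genotype 0 passed at a background of 0%, with 7 (12.5%) against 12.6%. With treatment 38 of 56 members lay above 0 in wild type mice (67.86%), 32 in R6/2 mice (57.14%) and 41 on average (73.21%). Over all tested probe sets the shares above 0 were 52.26%, 52.41% and 53.11%. The members' medians were 0.15, 0.08 and 0.10, and over all tested probe sets they were 0.01, 0.02 and 0.01. The R6/2 median was 0.002 without untreated R6/2 arrays 2 and 3, when 29 members lay above 0. Differences not yet given and next in p were 0.52 for the first Adam10 probe set, -0.54 for an Itgav probe set with signals of 28 to 77 and -0.24 for Col9a3 in R6/2 mice, and 0.89 for Col8a1 and -0.62 for the dimmer Itga3 probe set in wild type mice. Averaged over genotype they were 0.34 for Adam3, 0.37 for Itga7, 0.24 for Col1a1, -0.69 for the dim Col1a2 probe set, -0.29 for Lamb1, -0.21 for Adam9 and -0.17 for Col6a1. With untreated R6/2 arrays 2 and 3 left out, the first Adam10 probe set was at 0.16 in R6/2 mice, and Lamb1 and Adam9 were at -0.18 and -0.09 averaged over genotype. Each treatment comparison shares a group with each genotype comparison, so their values are given side by side and not correlated.

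**Figure D4:**
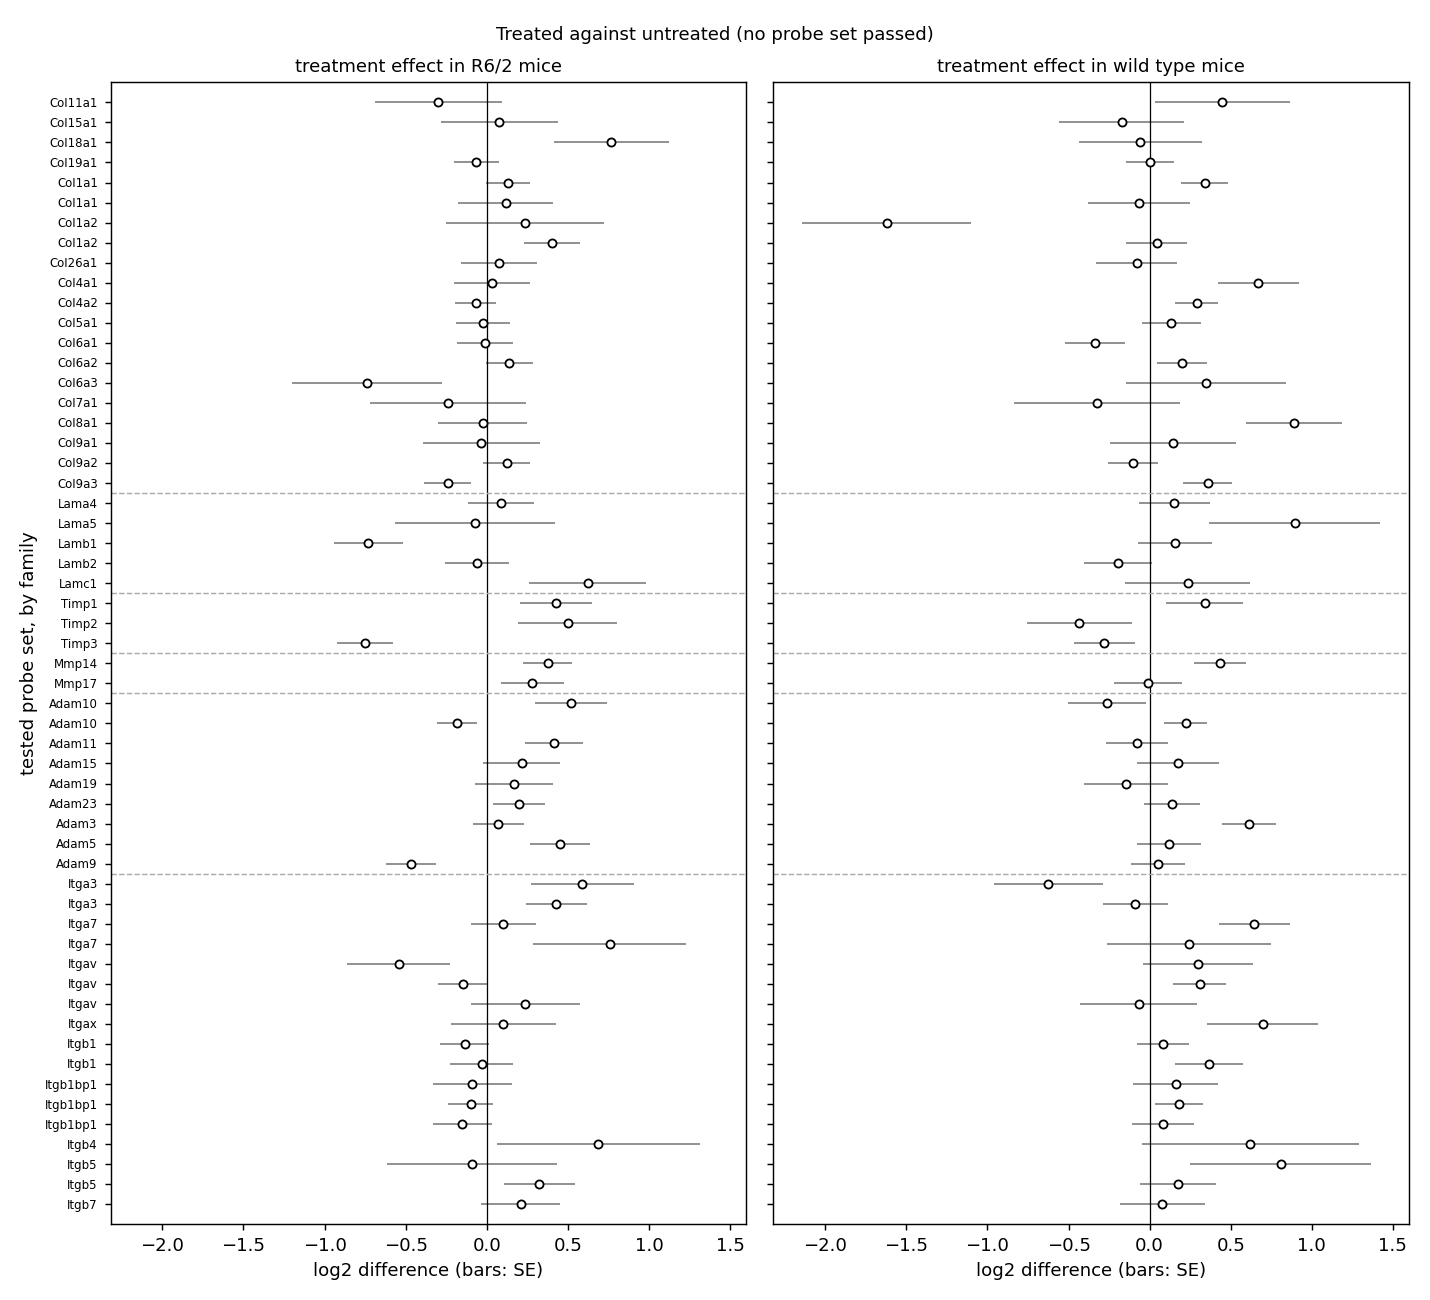
Log2 difference between treated and untreated mice for the 56 tested probe sets, by family, in R6/2 and in wild type mice; bars are SE and no point passed. Timp3 lies near -0.75 in R6/2 and -0.28 in wild type mice, and Mmp14 near 0.38 and 0.43.

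Other matrix genes were taken as lists of genes that the members' rule does not cover, each gene by its brightest tested probe set. Their counts are read against the background of 11.9% between untreated genotypes, with 5.49% higher and 6.41% lower. The proteoglycan and perineuronal net list had 13 tested genes, of which 1 fell (7.69%) and 12 did not pass between untreated genotypes. The gene that fell was Bcan, for brevican of the perineuronal net, at -1.12 (adjusted p = 0.0013), and next came Lum, for the fibril-bound lumican, at 0.50 (adjusted p = 0.121). The matricellular and guidance list had 4 tested genes, of which 2 fell (50%), namely Reln at -0.68 (adjusted p = 0.0159), for the reelin that guides neuronal layering, and Ccn2 at -0.79 (adjusted p = 0.0228), a growth factor binding matrix protein. Of 8 collagen folding and crosslinking genes, P4hb, a subunit of prolyl hydroxylase, fell by 1.10 on the log2 scale (adjusted p = 0.0213) and no gene rose (12.5% in all), and next came Bmp1, a procollagen protease, at -0.47 (adjusted p = 0.0769). In 10 basement membrane and linker glycoprotein genes none passed between untreated genotypes, and the smallest p was that of Dag1, for the laminin receptor dystroglycan, at -0.38 (adjusted p = 0.0513), before Fn1, for fibronectin, at 0.37 (adjusted p = 0.136).

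Of 11 other matrix protease and inhibitor genes, the lysosomal protease gene Ctsl rose, at 0.51 (adjusted p = 0.0319), and the proprotein convertase gene Pcsk6 fell, at -0.71 (adjusted p = 0.0320), 18.2% in all. In the 15 integrin-linked signalling genes 2 rose and 2 fell (26.7% in all). Rap1a, a small GTPase that activates integrins, rose, at 0.96 (adjusted p = 0.0184), as did Pxn, for the adhesion scaffold paxillin, at 0.72 (adjusted p = 0.0281). Src, a kinase of focal adhesions, fell, at -1.50 (adjusted p = 0.0302), as did Bcar1, an adhesion adaptor, at -0.53 (adjusted p = 0.0475). Of 10 genes of the TGF-beta pathway, which drives collagen transcription, Smad4 rose (10%), at 0.63 (adjusted p = 0.0268), and next came the receptor gene Acvrl1 at -0.34 (adjusted p = 0.0852). Leaving out untreated R6/2 arrays 2 and 3 took the calls over all 7453 tested probe sets from 887 to 167. Of the 11 calls in these lists, 10 were then lost, and Bcan still passed, at -1.08 (adjusted p = 0.0132). Of those lost, Src was at -0.90 (adjusted p = 0.0847), Rap1a at 0.60 (adjusted p = 0.111), P4hb at -1.26 (adjusted p = 0.0686), Reln at -0.68 (adjusted p = 0.0750) and Ccn2 at -0.67 (adjusted p = 0.145). The others were Pxn at 0.83 (adjusted p = 0.0723), Bcar1 at -0.48 (adjusted p = 0.193), Pcsk6 at -0.51 (adjusted p = 0.214), Ctsl at 0.37 (adjusted p = 0.171) and Smad4 at 0.59 (adjusted p = 0.0998). The median log2 differences between untreated genotypes, against 0.04 over all tested probe sets, were 0.03 in the proteoglycan, -0.74 in the matricellular, -0.10 in the folding, -0.18 in the basement membrane, -0.12 in the other protease, 0.10 in the integrin-linked and 0.04 in the TGF-beta list. Averaged over treatment the background was 6.61%. The calls in these lists were Bcan (7.69% of the proteoglycan list), Ccn2 and Reln (50% of the 4 matricellular genes), and Sparcl1 (10% of the basement membrane list). The others were Ctsl (9.09% of the other protease list) and Smad4 (10% of the TGF-beta list). No folding or integrin-linked gene passed. Of these calls, all but Smad4 (0.42, adjusted p = 0.0602) still passed without untreated R6/2 arrays 2 and 3. Over all tested probe sets the averaged calls then went from 493 to 424. In the 4 comparisons of treatment, and between treated genotypes, limma called none of the genes in these lists.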

How the data were processed

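Expression was measured on 13 Affymetrix MG-U74Av2 arrays of mouse brain hemispheres. The submitters deposited linear intensities, and the software that made them is not given in the sources used here. The 2% trimmed mean of an array was 100.047 to 100.128 and the median of its gene probe sets 39.6 to 45.1, at most 6.73% from the mean of the medians, so nothing more was normalized. Values below 3.1, their 10th percentile, were raised to it before log2. The tests left out 66 control probe sets of the 12488, and 7453 of the other 12422 reached the 40th percentile of mean log2. Genes came from the platform annotation, in which 10833 gene probe sets had 1 gene, 396 several and 1193 none, and 2 probe sets that pair a member with another gene were left out.

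Group means were fitted with limma 3.58.1 in R 4.3.3 over all 13 arrays, with variances moderated along intensity, and tested in 7 comparisons with Benjamini-Hochberg adjustment at 0.05. The fit was tested on simulated data with the same spread in every probe set and array. That test does not cover outlying arrays such as untreated R6/2 arrays 2 and 3. The members and gene lists were chosen with earlier results of these data known. Named were all members that passed, the 5 smallest p per direction where fewer passed, every Timp probe set, the 3 brightest of each family, and the calls and 2 smallest p of each list. Array number limits the precision. The alternatives were a floor of 10, quantile normalization, other filters, array weights, no intensity trend, only the arrays compared, and arrays left out singly or as untreated R6/2 arrays 2 and 3. Replicate numbers follow accession order and pair nothing. The lot number of the descriptions is shared by 2 arrays only, untreated R6/2 array 4 and treated R6/2 array 1, so no block could be fitted. Promoter windows and gene names are from RefSeq (GRCm38.p6). The names matched all 94 members, and windows were found for 60 of them. Protein sequences were not used here.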

Additional observations from a re-analysis of the deposited data

How the results depend on the processing

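The 70 member results named by the rule gave 1416 values under the alternatives. Of these, 1323 kept their direction and their side of the threshold, 80 kept the direction but no longer passed, 13 came to pass, and none changed direction. The 80 lost values all belong to the 7 calls between untreated genotypes and the 4 averaged over treatment. The other named results had not passed, so for them the same side means not passing. All 70 were named for passing or for a small p in these same arrays, which favours an unchanged direction. Mmp17 with treatment in R6/2 mice, not among the 70, turned its sign without untreated R6/2 arrays 2 and 3. Counts moved more. With untreated R6/2 arrays 2 and 3 left out, 2 members passed between untreated and 1 between treated genotypes, and over all probe sets 167 passed between untreated and 119 between treated genotypes, 1 with treatment in R6/2 and 8 with treatment in wild type mice. With array weights 1 member passed between treated genotypes, and over all probe sets the counts were 208 between treated genotypes, 120 with treatment in wild type mice, 932 for genotype and 17 for treatment averaged. Without the filter they were 512 between untreated genotypes, 1 with treatment in R6/2 and 2 in wild type mice, and without the intensity trend 1 in wild type mice. With only the arrays compared, 1 member passed between untreated and 1 between treated genotypes, and over all probe sets 243 between untreated genotypes and 9 with treatment in wild type mice. Leaving out single arrays gave 0 to 11 members between untreated genotypes, 0 to 1 between treated genotypes, 0 to 1 with treatment in R6/2 mice, 1 to 4 for genotype averaged and 0 in the other 3 comparisons. Over all probe sets it gave 156 to 1301, 20 to 97, 0 to 116 and 263 to 705 in those 4 comparisons, 0 to 6 with treatment in wild type mice, 0 in the interaction and 0 to 43 for treatment averaged. The causes were not tested. No paired analysis was possible because the labels give no replicate numbers that groups share. Dim signals limit 80 of the 136 member probe sets, and groups of 3 or 4 arrays limit the rest.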

Other observations

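Among the 80 member probe sets below the filter, a fit of all gene probe sets called 2 between untreated genotypes, of Adam28 and Col13a1, and none in the other 6 comparisons. That is 2.5%, against 4.12% of all 12422 gene probe sets in the same fit. These genes are named because of their values. The Adam28 probe set, for a membrane protease first described in lymphocytes, had signals of 8, 7.9 and 7.8 in untreated wild types and 32.9, 60.2, 84.8 and 49.9 in untreated R6/2 mice. With treatment it had 11.9, 12.9 and 56.6 in wild type and 10.6, 46.4 and 8.1 in R6/2 mice. Its difference between untreated genotypes was 2.77 on the log2 scale (SE 0.68, limma adjusted p = 0.0490). The untreated groups did not overlap, and the treated groups did. The Col13a1 probe set, for a transmembrane collagen, had 4.1, 4.6 and 5.1 in untreated wild types and 8, 13.7, 12 and 11.3 in untreated R6/2 mice, without overlap. With treatment it had 12.6, 10.2 and 9.6 in wild type and 8.3, 7.5 and 11.1 in R6/2 mice. Its difference between untreated genotypes was 1.27 (SE 0.20, limma adjusted p = 0.0127), and the other Col13a1 probe set gave 0.64 (adjusted p = 0.287). For the 2 called probe sets the untreated wild type signals all lie below 10, the floor of 1 alternative. Those of Col13a1 lie near the floor of 3.1 used here. The size of both differences thus depends on the floor.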
